A study of Mus musculus with 56 samples.

Results

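The genes described here are 10 markers of the mesothelium, the single layer of cells that covers the serous surfaces of the abdominal organs and of visceral adipose tissue (VAT). They are Msln, Upk3b, Upk1b, Lrrn4, Wt1, Muc16, Gpm6a, Krt8, Krt18 and Krt19, and all 10 were found by symbol among the 25939 genes of the VAT expression table. RNA came from VAT of adult female C57BL/6J mice, aged 9 weeks, that were kept under a light-dark cycle and offered food either in the daytime only (daytime-restricted feeding, DRF) or at night only (nighttime-restricted feeding, NRF, the reference) for 7 days. The mice had normal chow, and the labels name no engineered allele and no drug. The 56 libraries are 14 groups of 4 mice, 1 group for each regimen at each of 7 zeitgeber times (ZT) from ZT0 to ZT24 at intervals of 4 h, and ZT0 and ZT24 are separate mice at the same clock time. The labels name neither the fat depot nor the share of it that was sampled. Each library held 30.8 to 40.8 M reads on genes (median 34.7 M under DRF and 35.7 M under NRF).

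Mesothelial cells secrete lubricating fluid, carry microvilli and keratins like an epithelium, and express Wt1 like the mesoderm from which they derive. The visceral depots of the mouse are wrapped in such cells, whereas subcutaneous fat lacks them, so their transcripts in VAT report on the surface of the tissue rather than on its adipocytes. Mesothelin (Msln) is a lipid-anchored surface protein and binds Muc16, a very large membrane mucin that is shed into serous fluid. Upk3b and Upk1b belong to the uroplakins, which are best known from the plaques of the bladder lining. Wt1 is a zinc-finger transcription factor, Gpm6a a membrane glycoprotein of the proteolipid family and Lrrn4 a membrane protein with leucine-rich repeats. Krt8 pairs with Krt18 in the filaments of simple epithelia, where Krt19 is also found, and these keratins are shared by nearly every simple epithelium.

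Coordinates are those of GRCm38. Msln (ENSMUSG00000063011) lies at chr17:25748613-25754378 on the minus strand, Upk3b (ENSMUSG00000042985) at chr5:136038496-136046487 on the plus strand and Upk1b (ENSMUSG00000049436) at chr16:38773184-38800328 on the minus strand. Lrrn4 (ENSMUSG00000043110) at chr2:132868305-132880891 on the minus strand and Wt1 (ENSMUSG00000016458) at chr2:105126529-105173616 on the plus strand share a chromosome. Muc16 (ENSMUSG00000109564) spans chr9:18495455-18674530 on the minus strand, Gpm6a (ENSMUSG00000031517) chr8:54954843-55060871 on the plus strand and Krt19 (ENSMUSG00000020911) chr11:100140810-100148665 on the minus strand. The partners Krt8 (ENSMUSG00000049382), at chr15:101996698-102004482 on the minus strand, and Krt18 (ENSMUSG00000023043), at chr15:102028180-102032027 on the plus strand, are neighbours. An exon of Krt8 overlaps the noncoding gene Gm36026 on the other strand, and the library kit named in the labels does not mark strand, so reads from the pair cannot be told apart. Gm36026 itself was listed at up to 0.19 CPM (reads scaled to a common library size). Reads that keratin pseudogenes share with Krt8 or Krt18 could have been split between them, and the annotated Krt8-ps reached 0.24 CPM.

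RefSeq promoters, 250 bases before to 50 bases after the start of transcription on GRCm38.p6, were at hand for 6 of the 10 genes, Upk3b, Lrrn4, Muc16, Gpm6a, Krt8 and Krt18. Because the tissue was sampled around the clock, the promoters were searched on both strands for 3 elements through which clock factors act and for a site of WT1. The core bound by REV-ERB and ROR factors, TAGGTCA, was present in the promoters of 3 of the 6 genes (Upk3b, Krt8 and Krt18), each time at 1 place and on the strand of the gene, and in 2.61% of all 32851 promoters. The E-box CACGTG (7.15% of all promoters), the D-box TTATGNAA (3.38%) and the WT1 site GCGTGGGAG (0.472%) were in none of the 6. The 3 promoters with the core are printed because Krt8 passed the test of rhythm under NRF, and that of Muc16 because it passed under both regimens. They lie at chr5:136038246-136038545 (Upk3b, plus strand), chr15:102004293-102004592 (Krt8, minus strand), chr15:102027966-102028265 (Krt18, plus strand) and chr9:18674554-18674853 (Muc16, minus strand), and run 5′ to 3′ along the gene. The core is in capitals in the first 3 and is absent from that of Muc16.
Upk3b: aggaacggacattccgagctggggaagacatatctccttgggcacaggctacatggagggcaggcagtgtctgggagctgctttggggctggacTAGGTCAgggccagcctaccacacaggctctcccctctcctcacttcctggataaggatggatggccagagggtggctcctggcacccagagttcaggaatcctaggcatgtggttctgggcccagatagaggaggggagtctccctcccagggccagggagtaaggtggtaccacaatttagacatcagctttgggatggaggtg
Krt8: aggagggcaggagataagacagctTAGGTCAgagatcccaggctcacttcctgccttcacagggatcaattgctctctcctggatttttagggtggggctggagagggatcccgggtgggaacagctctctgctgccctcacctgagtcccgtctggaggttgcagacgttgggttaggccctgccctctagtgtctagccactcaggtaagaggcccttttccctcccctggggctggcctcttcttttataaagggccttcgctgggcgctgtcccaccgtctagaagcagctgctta
Krt18: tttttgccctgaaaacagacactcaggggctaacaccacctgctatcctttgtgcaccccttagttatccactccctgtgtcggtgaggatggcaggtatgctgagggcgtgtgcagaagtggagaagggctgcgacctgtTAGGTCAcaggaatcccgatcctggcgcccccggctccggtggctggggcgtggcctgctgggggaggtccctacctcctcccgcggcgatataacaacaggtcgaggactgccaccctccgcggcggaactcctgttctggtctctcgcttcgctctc
Muc16: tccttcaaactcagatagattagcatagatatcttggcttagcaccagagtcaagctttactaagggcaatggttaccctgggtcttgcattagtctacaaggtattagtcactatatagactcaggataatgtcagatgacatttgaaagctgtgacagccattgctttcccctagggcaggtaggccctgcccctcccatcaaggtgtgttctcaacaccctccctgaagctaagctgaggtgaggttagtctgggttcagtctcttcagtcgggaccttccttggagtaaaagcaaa
The core starts 156 bases before the start of transcription in Upk3b, 226 bases before it in Krt8 and 109 bases before it in Krt18. A match describes the letters of the window and is no evidence of binding, and windows without a match hold no such letters within these 300 bases.

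All 10 genes were detected in all 56 libraries, the lowest value being 119 reads (Krt18). Levels are given in CPM, on the effective library size contained in the deposited values, and are compared between genes per kilobase of exon (CPM per kb). Upk3b had the highest median level, 61.5 CPM per kb, and was the highest of the 10 in 54 of 56 libraries. Krt19 (27.6), Msln (22.3), Upk1b (15.7), Gpm6a (14.3), Lrrn4 (11.8), Krt8 (8.38), Krt18 (5.54) and Wt1 (4.94) followed in median CPM per kb. Muc16, at 0.945 CPM per kb, was the lowest in 56 of 56 libraries, and only its range stood apart from that of its neighbour in the order. Krt18 was above Wt1 in 35 of 56 libraries, and without the 2 DRF libraries described further on their ranges were 2.10 to 9.73 and 2.42 to 7.21 CPM per kb, whereas Msln was above Upk1b in 56 of 56. The exon length of Msln was taken from the values themselves (2114 bases), because its annotated length gave no whole reads, so its place in this order is less certain than the others.

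Genes of the bladder lining were near 0. The urothelial genes Upk1a and Krt20 summed to 0.31 to 1.16 CPM in the NRF libraries and to at most 4.66 CPM in any DRF library, against 114 to 368 CPM for Upk3b under NRF. Of 16 further mesothelial genes listed, 15 had a row in the table, and their summed level was 738 to 1630 CPM in the NRF libraries. Igfbp6, Efemp1 and Podxl were the largest contributors and Krt14 the smallest, at a median of 0.30 CPM. In bulk tissue the reads of these genes cannot be assigned to the mesothelium alone.

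A pair of DRF libraries stood apart, ZT0 replicate 4 and ZT8 replicate 1. The 10 listed genes of uterine and oviduct epithelium found in the table summed to 6149 CPM in the first and 514 CPM in the second, against 2.64 to 77.7 CPM in the other 26 DRF libraries and 2.89 to 12.3 CPM in the 28 NRF libraries. Ltf reached 4229 and 109 CPM there, where the median of the other 54 libraries was 0.052 CPM, and Epcam 245 and 89.0 CPM against 0.70 CPM. The highest summed level in the other 26 DRF libraries, 77.7 CPM, also lay above every NRF library, against a median of 4.10 CPM in these 26. That library was kept among the 54. Krt8 stood at 249 and 148 CPM in this pair, Krt18 at 124 and 58.6 CPM and Krt19 at 215 and 118 CPM, each above the highest of the other 54 libraries (33.1, 13.98 and 80.1 CPM). Wt1, at 45.3 CPM, was also highest of all libraries in ZT8 replicate 1. Of the 5 ovary genes found in the table, Foxl2 stood at 29.4 CPM in that library and at 3.43 CPM in ZT0 replicate 4, against at most 0.61 CPM in the other 54. In both libraries Amh, Inha, Cyp11a1 and Lhcgr lay within the range of the other 54. The 6 remaining members did not exceed the other libraries in this pair. Adipocyte genes summed to 7326 and 4437 CPM in the pair, against 8087 to 15937 CPM in the other 26 DRF libraries and 7891 to 14190 CPM under NRF. Smooth muscle genes summed to 1019 and 1053 CPM, above the other 26 DRF libraries (189 to 535 CPM) and within the range under NRF (247 to 1210 CPM). The part of these shifts in the members' values was not tested. Values are from all 56 libraries unless the remaining 54 are named, and calls of the 10 genes that changed without the pair are given with it and without it.

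**Figure D1:**
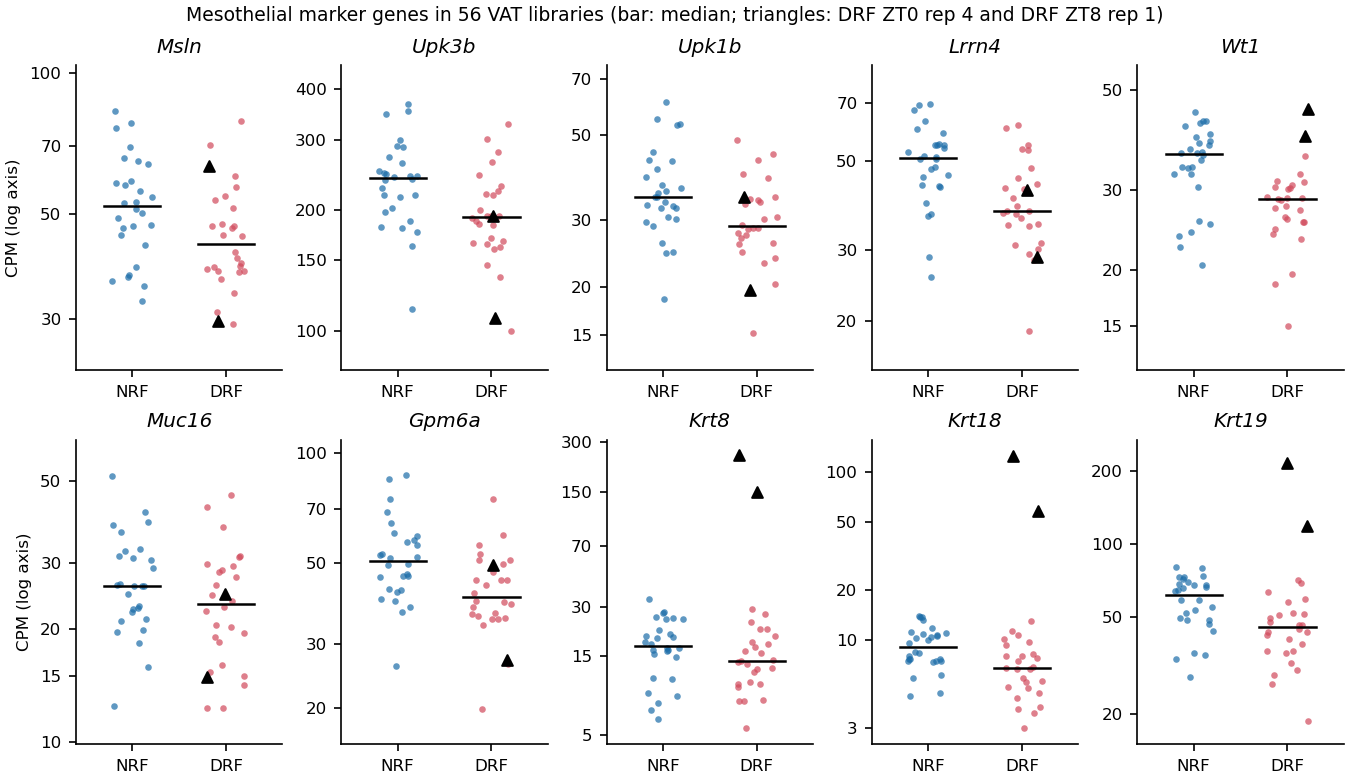
CPM (log axis) of each gene in the 28 NRF and 28 DRF libraries; each point is a mouse, bars are medians and triangles mark the pair of DRF libraries that held epithelial genes. The triangles lie far above all other points for Krt8, Krt18 and Krt19, with Krt8 at 249 and 148 CPM, and within the range of the others for Upk3b, Upk1b, Lrrn4, Muc16 and Gpm6a.

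The first comparison asks whether feeding time changed the mean level of the genes over the day. Mean levels were lower under DRF for 9 of 10 genes, and 4 of them fell by the test: Gpm6a, Lrrn4, Upk3b and Wt1, to 0.81, 0.82, 0.83 and 0.84 times the NRF level. No member rose. Of all 25938 genes tested, 10.3% were lower and 11.4% higher under DRF at an adjusted p under 0.05, and 50.3% were lower by sign alone. The median difference of the 10 genes was -0.22 on the log2(CPM + 1) scale, against -0.00036 for all genes. The members varied together between mice, as described further on, so they are not 10 independent readings. In bulk tissue, fewer mesothelial cells and less RNA per cell cannot be told apart.

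Gpm6a ranged from 19.9 to 74.6 CPM under DRF, with a median of 40.3, and from 26.1 to 87.1 CPM under NRF, with a median of 50.6. It fell by 0.30 ± 0.09 (SE) on the log2 scale (limma, adjusted p = 0.017). Lrrn4 ranged from 18.8 to 61.8 CPM under DRF (median 37.6) and from 25.7 to 69.6 CPM under NRF (median 51.1), and fell by 0.29 ± 0.09 (adjusted p = 0.015, limma). For both genes the ranges overlapped over most of their width, with the lowest, median and highest values all lower under DRF. Upk3b, the most abundant member, ranged from 100.1 to 327 CPM under DRF (median 192) and from 114 to 368 CPM under NRF (median 241), and fell by 0.27 ± 0.10 (adjusted p = 0.042, limma). Wt1 ranged from 15.0 to 45.3 CPM under DRF (median 28.6) and from 20.5 to 44.7 CPM under NRF (median 36.0), and fell by 0.26 ± 0.08 (adjusted p = 0.016, limma). Its highest DRF value belongs to ZT8 replicate 1, 1 of the pair of libraries with epithelial genes.

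The remaining surface markers did not pass the test. Upk1b had medians of 28.9 CPM under DRF (15.2 to 48.5) and 34.5 CPM under NRF (18.6 to 61.0), a difference of -0.24 ± 0.10 (adjusted p = 0.071, limma). Msln had medians of 43.3 CPM under DRF (29.2 to 78.9) and 52.2 CPM under NRF (32.7 to 83.1), a difference of -0.19 ± 0.10 (adjusted p = 0.16, limma). Muc16, whose medians were 23.4 CPM under DRF (12.3 to 45.8) and 26.1 CPM under NRF (12.4 to 51.5), differed by -0.13 ± 0.10 (adjusted p = 0.39, limma). All 3 had the sign of those that passed, and the groups overlapped over most of their ranges.

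For the keratins the comparison turned on the pair of libraries with epithelial genes. With all 56 libraries, Krt8 (+0.11 ± 0.23, adjusted p = 0.79), Krt18 (-0.12 ± 0.21, adjusted p = 0.76) and Krt19 (-0.21 ± 0.14, adjusted p = 0.34) did not pass in limma. Without the pair, Krt18 fell by 0.36 ± 0.11 (adjusted p = 0.013, limma), with medians of 6.83 CPM in 26 DRF libraries (3.02 to 12.996) and 9.08 CPM in 28 NRF libraries (4.65 to 13.98). Krt19 fell by 0.33 ± 0.11 (adjusted p = 0.014, limma), with medians of 44.1 CPM (18.8 to 71.3) and 61.4 CPM (28.5 to 80.1). The sign of Krt8 turned, to -0.14 ± 0.13 (adjusted p = 0.46, limma). Lrrn4 (-0.27), Wt1 (-0.31) and Gpm6a (-0.29) passed in these 54 libraries as well, while Upk3b, at -0.24, missed the threshold (adjusted p = 0.062, limma). In all, 5 of 10 genes fell and none rose, against 14.3% and 14.6% of all genes, and 10 of 10 were lower by sign, against 53.7%.

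**Figure D2:**
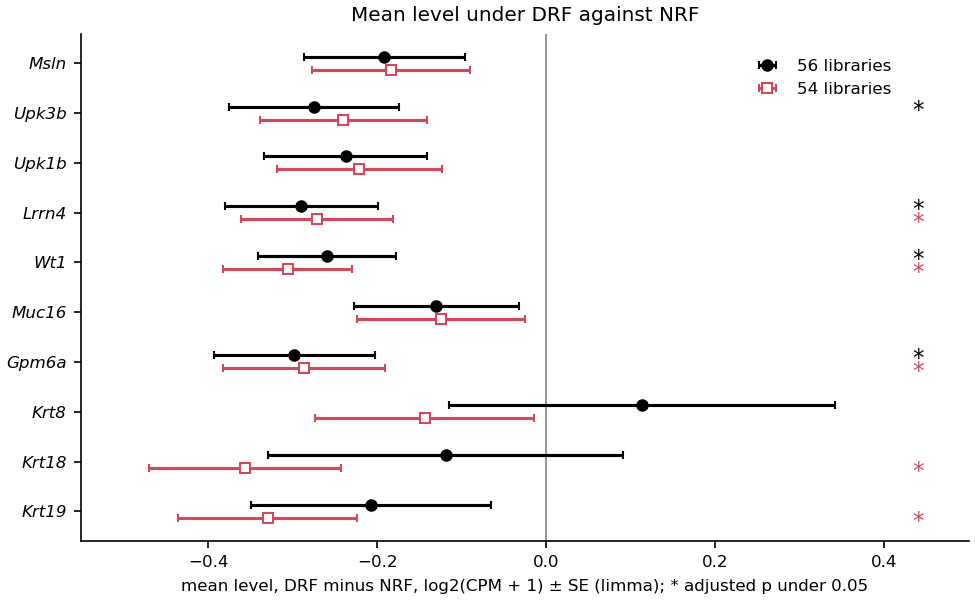
Difference of the mean level, DRF minus NRF, on the log2(CPM + 1) scale with its SE from limma, in all 56 libraries (filled circles) and in 54 (open squares); asterisks mark an adjusted p under 0.05. All genes but Krt8 lie below 0 in both, and Krt8 moves from +0.11 to -0.14.

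The calls rested on which mice were included. Lrrn4, Wt1 and Gpm6a passed when any 1 of the 56 libraries was left out, whereas Upk3b passed in 30 of these 56 fits, with adjusted p values up to 0.072 (without NRF ZT8 replicate 2). Upk1b passed in 5 of the fits, without DRF ZT8 replicate 3, DRF ZT16 replicate 4, DRF ZT24 replicate 3, NRF ZT8 replicate 3 or NRF ZT24 replicate 4. With the 14 mice of a replicate number left out, no gene passed without number 1 (2 of 10 at an unadjusted p under 0.05, 8.25% of all genes called lower) or without number 2 (1 of 10, 6.68%), and 5 of 10 passed without number 3 or number 4 (6.55% and 8.06%). The number of genes with a lower mean under DRF was 9 or 10 of 10 in the 4 fits without a replicate number.

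Of the 15 other mesothelial genes in the table, 9 fell under DRF, none rose and 6 did not pass, with a median difference of -0.21. By sign 12 of 15 were lower, the others being Cldn15 (+0.06), Ezr (+0.06) and Gata6 (+0.02). Without the pair 11 of 15 fell and none rose. For this list and those below, 10.3% of all genes were lower and 11.4% higher with all libraries, and 14.3% and 14.6% without the pair. The largest falls among the 15 genes were in Nkain4 (-0.35), Crb2 (-0.34), Igfbp6 (-0.34), Efemp1 (-0.30), Podxl (-0.26) and Bnc1 (-0.22), where Bnc1 encodes a zinc-finger factor and Efemp1 an extracellular matrix protein. Podxl, Krt14 and Tbx18, among the 9 that fell, followed the members little between mice (median r 0.34, 0.28 and 0.03, described further on). In the adipose progenitor list, Dcn (-0.43), Pdgfra (-0.41) and Dpp4 (-0.25) fell, 3 of 5 in all with or without the pair, and its summed level was 1253 to 2076 CPM in the 26 DRF libraries and 1387 to 2938 CPM under NRF. In the macrophage list, Csf1r (-0.33) and Adgre1 (-0.26) fell, 2 of 3, also without the pair, and the summed level was 145 to 235 CPM in the 26 DRF libraries and 155 to 319 CPM under NRF. Smooth muscle genes passed in 0 of 5 with all libraries by limma and in 5 of 5, all lower, without the pair. Their summed levels were 189 to 535 CPM in the 26 DRF libraries, 1019 and 1053 CPM in the pair and 247 to 1210 CPM under NRF. Among adipocyte genes, Adipoq fell (-0.31) and Lep rose (+0.60), and the other 4 of 6 did not pass, of which Fabp4 was higher without the pair (+0.16, adjusted p = 0.024, limma). None of 3 B and T cell genes and none of 3 skeletal muscle genes passed by limma with or without the pair, with median differences of -0.03 and -0.12 in all libraries. Of the pancreas genes Cela1 rose (+0.76, adjusted p = 4.0e-07, limma), and Cpa1, at a mean of 0.025 CPM, passed as higher without the pair (+0.03). The part of these cell types in the differences of the mesothelial genes was not tested.

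The second comparison took DRF against NRF at each time. At ZT4, 4 of 10 genes fell under DRF (9.04% of all genes), Gpm6a to 0.49 times the NRF level, and none rose (10.4%), and in 6 of 10 all 4 DRF mice lay below all 4 NRF mice (12.2% of all genes). At ZT0, Lrrn4 fell (5.06% of all genes lower, 5.41% higher) and was the member without overlap (4.74%). At ZT8, ZT12, ZT16, ZT20 and ZT24 none of the 10 genes passed in limma. The share of all genes lower at these times was 7.47%, 7.38%, 4.97%, 6.41% and 5.24%, and the share higher was 8.99%, 8.76%, 5%, 6.71% and 6.09%. Wt1 at ZT16 (8.93% of all genes), and Wt1 and Krt19 at ZT20 (10.1%), had all 4 DRF mice below all 4 NRF mice, and no member did at ZT8 (5.81%), ZT12 (9.94%) or ZT24 (7.36%). At ZT20 Wt1 stood at 25.8 to 31.2 CPM under DRF and at 33.8 to 38.2 CPM under NRF.

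At ZT4, Gpm6a stood at 26.4, 35.1, 35.2 and 35.8 CPM in the 4 DRF mice and at 57.7, 87.1, 85.0 and 51.6 CPM in the 4 NRF mice. The groups did not overlap, and the level was 0.49 times that of NRF (log2 difference -1.04 ± 0.25, adjusted p = 0.0020, limma). Muc16 stood at 12.3, 14.2, 15.3 and 15.0 CPM under DRF and at 26.3, 41.3, 30.6 and 22.7 CPM under NRF. This difference was of the same size (-1.01 ± 0.25, adjusted p = 0.0024, limma), and the 4 DRF values were among the lowest 7 of the 56 libraries. Msln, the binding partner of Muc16, stood at 29.2, 37.9, 38.7 and 46.9 CPM under DRF and at 58.3, 69.7, 78.4 and 49.2 CPM under NRF, again without overlap (-0.73 ± 0.25, adjusted p = 0.035, limma). Upk1b stood at 20.4, 27.4, 29.2 and 28.5 CPM under DRF and at 33.5, 53.5, 61.0 and 32.7 CPM under NRF (-0.71 ± 0.26, adjusted p = 0.044, limma). Upk3b (-0.71, adjusted p = 0.053), Lrrn4 (-0.64, adjusted p = 0.056) and Wt1 (-0.50, adjusted p = 0.085) had the same sign at ZT4 and missed the threshold in limma. The keratins differed by -0.24 (Krt8), -0.11 (Krt18) and -0.46 (Krt19) at this time and did not pass.

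At ZT0, Lrrn4 stood at 18.8, 30.8, 37.6 and 42.3 CPM under DRF and at 63.3, 58.9, 60.1 and 48.4 CPM under NRF, without overlap (-0.87 ± 0.24, adjusted p = 0.015, limma). The keratins at ZT0 differ between the 3 other DRF mice and replicate 4, the library with 6149 CPM of uterine epithelial genes. Krt8 stood at 5.47, 8.09, 8.06 and, in replicate 4, 249 CPM under DRF, and at 27.8, 19.8, 18.2 and 16.2 CPM under NRF. Krt19 stood at 18.8, 28.8, 26.6 and 215 CPM under DRF, and at 79.3, 66.1, 64.8 and 51.9 CPM under NRF. With all 4 mice neither passed (adjusted p = 0.92 and 0.33, limma), and without the pair of libraries both had the largest differences of any member at any time in these 54 libraries, at -1.38 for Krt8 (adjusted p = 0.00031, limma) and -1.38 for Krt19 (adjusted p = 0.00011, limma). Krt18 fell as well then (-0.92, adjusted p = 0.032, limma), as did Wt1 (-0.61) and Muc16 (-0.79), so that 6 of 10 genes were lower at ZT0 (5.19% of all genes) and 6 of 10 at ZT4 (11.5%), where Upk3b (adjusted p = 0.028) and Lrrn4 (adjusted p = 0.031) passed in addition. These values at ZT0 rest on 3 DRF mice.

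ZT24 is the clock time of ZT0 in other mice, and no member passed there. Lrrn4 averaged 38.1 ± 10.8 CPM (SD, n = 4) under DRF and 50.4 ± 18.3 CPM under NRF at ZT24, a difference of -0.35, and Krt19 averaged 44.05 ± 17.1 CPM and 55.9 ± 16.3 CPM, also -0.35. At ZT24, DRF replicate 3 was the highest of its group for 9 of the 10 genes (78.9 CPM for Msln against 31.0 to 38.0 CPM in the other 3 mice). Whether ZT0 and ZT24 differ was not tested. Leaving out 1 library changed calls at single times: Gpm6a and Muc16 at ZT4 passed in 56 of 56 such fits, Msln in 51 (not without DRF ZT4 replicate 1, 2 or 3 or NRF ZT4 replicate 2 or 3), Upk1b in 50 (not without any 1 of the 4 DRF mice or NRF replicates 2 or 3 at ZT4) and Lrrn4 at ZT0 in 55 (not without DRF ZT0 replicate 1). Other calls were gained: Upk3b at ZT4 passed in 11 fits and Lrrn4 at ZT4 in 9. Without DRF ZT0 replicate 4, Krt8 (adjusted p = 0.025), Krt19 (adjusted p = 0.00037) and Muc16 (adjusted p = 0.046) passed as lower at ZT0, and Krt8 passed as higher under DRF at ZT8 in limma (adjusted p = 0.0060), where the other library with epithelial genes was still included.

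Genes of other cell types also differed at ZT4, where 9.04% of all genes were lower and 10.4% higher. Of the adipose progenitor genes 3 of 5 were lower, with a median difference of -0.67, against -0.68 for the 10 mesothelial genes. Of the smooth muscle genes 1 of 5 was lower (median -0.94), of the macrophage genes 1 of 3 (median -0.39) and of the adipocyte genes 1 of 6 was higher (median +0.23). At ZT0 the medians of these 4 lists were -0.19, -0.38, -0.02 and +0.09. Their part in the differences of the mesothelial genes was not tested.

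**Figure D3:**
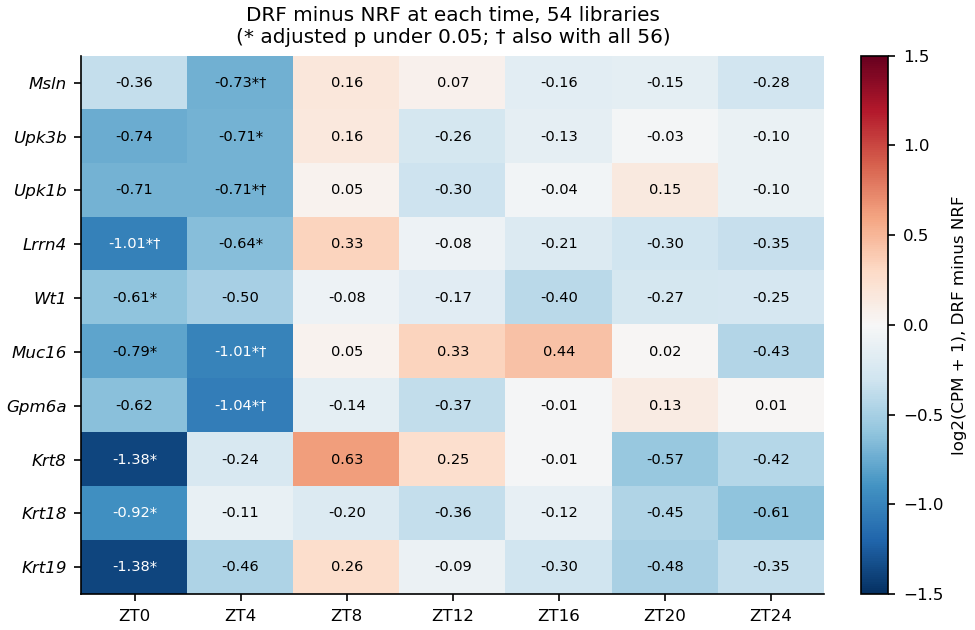
Difference DRF minus NRF at each zeitgeber time on the log2(CPM + 1) scale in 54 libraries, for each gene (rows); asterisks mark an adjusted p under 0.05 in limma and daggers those that also pass with all 56 libraries. The darkest cells are Krt8 and Krt19 (-1.38 each) and Lrrn4 (-1.01) at ZT0 and Gpm6a (-1.04) and Muc16 (-1.01) at ZT4, while differences at ZT8 are mostly near or above 0.

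The third comparison asks whether the genes oscillate over 24 h, tested by a JTK-type rank test and a Lomb-Scargle periodogram combined after MetaCycle. Under NRF, Muc16 and Krt8 oscillated, 2 of 10 against 29.6% of all genes. Under DRF, Muc16 oscillated, 1 of 10 against 17.2% of all genes, and again 1 of 10 against 21% without the pair of libraries. Muc16 was the member that passed under both regimens, as did 10.9% of all genes.

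Muc16 under NRF averaged 28.3 ± 8.4 CPM (SD, n = 4) at ZT0, 19.3 ± 6.3 CPM at its trough at ZT12 and 36.0 ± 12.7 CPM at ZT24. Under DRF it averaged 14.2 ± 1.3 CPM at its trough at ZT4 and 32.7 ± 9.2 CPM at ZT16. The fitted cosine had an amplitude of 0.32 ± 0.09 (SE, log2) under NRF (adjusted p = 0.047, rhythm test after MetaCycle) with a peak at 23.99 ± 1.2 h, and an amplitude of 0.49 ± 0.10 under DRF (adjusted p = 0.0059) with a peak at 16.8 ± 0.7 h. The peak was thus 7.22 ± 1.45 h earlier under DRF, and the 2 rhythms differed by the interaction test (adjusted p = 0.00032, limma). This difference passed in all 56 fits that left out 1 library (adjusted p up to 0.00098) and without the pair of libraries (adjusted p = 0.00028). The rhythm under DRF passed without any single library (adjusted p up to 0.018) but not without replicate number 1 (adjusted p = 0.082) or 4 (adjusted p = 0.060). The rhythm under NRF was fragile, passing in 7 of 28 fits that left out 1 NRF library (adjusted p up to 0.11, without ZT12 replicate 1).

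Krt8 under NRF averaged 8.87 ± 1.6 CPM (SD, n = 4) at ZT12 and 10.4 ± 4.5 CPM at ZT8, and 25.9 ± 6.4 CPM at ZT20. The 4 mice at ZT12 (8.59, 8.98, 7.01 and 10.9 CPM) lay below all 4 at ZT20 (17.7, 33.1, 27.5 and 25.3 CPM). These times had the lowest and the highest mean and were picked for that, so their separation is no further evidence of a rhythm. The rhythm under NRF passed (adjusted p = 0.0031, rhythm test after MetaCycle), also in 28 of 28 fits without 1 library. By the limma F-test it did not pass with all 56 libraries, which share 1 estimate of the spread (adjusted p = 0.073), and passed without the pair (adjusted p = 0.00025). The fitted cosine had an amplitude of 0.63 ± 0.13 (SE, log2) and a peak at 21.1 ± 0.8 h in the 54-library fit. Under DRF, Krt8 did not pass with or without the pair of libraries (adjusted p = 1.0 in both). The difference of its rhythm between the regimens passed without the pair (adjusted p = 0.0072, limma) and not with it (adjusted p = 0.19). For Krt19 and Lrrn4 these adjusted p values were 0.045 and 0.039 without the pair and 0.26 and 0.095 with it, and neither had a rhythm that passed under a regimen.

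Gpm6a was the other gene whose rhythm differed between the regimens with all libraries (adjusted p = 0.041, limma). Its fitted cosine had an amplitude of 0.24 ± 0.10 under NRF with a peak at 5.6 ± 1.5 h and of 0.19 ± 0.10 under DRF with a peak at 18.1 ± 1.8 h, but it passed the rhythm test under neither regimen (adjusted p = 0.21 and 0.72). The call was lost without the pair of libraries (adjusted p = 0.061) and in 15 of 56 fits that left out 1 library, with the highest adjusted p, 0.081, without NRF ZT4 replicate 2. In all, 2 of 10 members had a different rhythm with all libraries and 4 of 10 without the pair, against 36% and 40.6% of all genes.

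**Figure D4:**
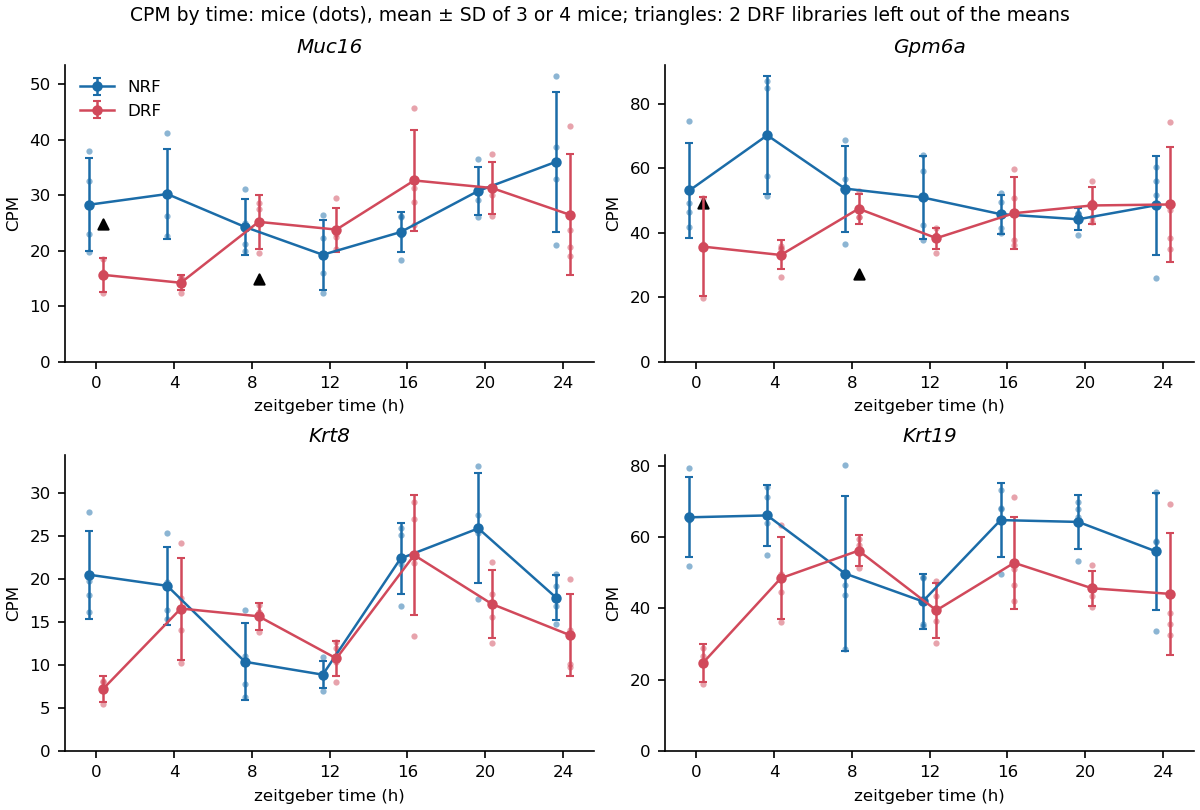
CPM of Muc16, Gpm6a, Krt8 and Krt19 by zeitgeber time under NRF (blue) and DRF (red); dots are mice, lines join means with their SD (4 mice, or 3 for DRF at ZT0 and ZT8), and triangles show the pair of DRF libraries left out of the means, which lie off the scale for Krt8 and Krt19. Muc16 is lowest at ZT12 under NRF and at ZT4 under DRF, and Krt8 under NRF falls to 8.87 CPM at ZT12.

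Among the other mesothelial genes, 6 of 15 had a rhythm that differed between the regimens, against 36% of all genes (6 of 15 and 40.6% without the pair): with all libraries they were Cldn15, Gata6, Podxl, Pdpn, Efemp1 and Ezr. At ZT4, 7 of these 15 genes were lower under DRF and 1 was higher (median difference -0.52), against 9.04% and 10.4% of all genes. Among those that passed, the largest differences were in Gata6 (+1.04), Igfbp6 (-0.92), Aldh1a2 (-0.87), Efemp1 (-0.72), Bnc1 (-0.72) and Crb2 (-0.64). Nkain4 (-0.69, adjusted p = 0.067, limma) missed the threshold at this time. At ZT0, 5 of 15 were lower and none was higher (median -0.41), against 5.06% and 5.41% of all genes. The 5 were Nkain4 (-0.97), Gata6 (-0.91), Podxl (-0.76), Pdpn (-0.71) and Crb2 (-0.65). Gata6 is a transcription factor also expressed by cells other than the mesothelium.

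The fourth question is how much of the variation lay between the groups. The 14 groups accounted for a median of 27.3% of the variance of the 10 genes on the log2 scale, from 16.8% for Krt18 to 54.5% for Muc16, against a median of 49.96% for genes with a mean CPM of at least 1. Without the pair of libraries the median was 44.4%, with Krt8 at 71.2%, Krt19 at 59.6% and Muc16 at 58.7%, against 55.4% for those genes at large. The SD within groups was 0.28 to 0.39 on the log2 scale in the 54 libraries, against a median of 0.17 for genes with a mean CPM of at least 1. Msln, Upk3b and Upk1b had the lowest shares then, 31.4% to 33.96%.

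The variation between mice was shared by the members. Over the 54 libraries, all 45 pairs of genes were positively correlated, with Pearson's r from 0.43 to 0.94 and a median of 0.72. Deviations from the group means, from which feeding regimen and time are removed, gave a median r of 0.77, and the median was 0.70 within the 26 DRF libraries and 0.66 within the 28 NRF libraries. The closest pair was Upk3b with Upk1b (r = 0.94, rho = 0.92, both with a permutation p of 1e-05, the smallest that 100000 permutations can give, and r = 0.93 without the 2 farthest libraries). Upk1b with Gpm6a (r = 0.93) and Upk3b with Gpm6a (r = 0.91) came next. Among the keratins, r was 0.85 for Krt8 with Krt19, 0.78 for Krt8 with its filament partner Krt18 and 0.78 for Krt18 with Krt19. Krt19 had values of this size with Wt1 (r = 0.83), Upk3b (0.82) and Lrrn4 (0.79), and on deviations from the group means r was 0.89 with Upk3b, 0.86 with Krt8 and 0.70 with Krt18. The lowest pair was Krt8 with Gpm6a (r = 0.43, rho = 0.40, permutation p = 0.0011 for r, and r = 0.36 without the 2 farthest libraries), for which r was 0.71 on deviations from the group means. All 45 correlations passed after adjustment over the 45 pairs.

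**Figure D5:**
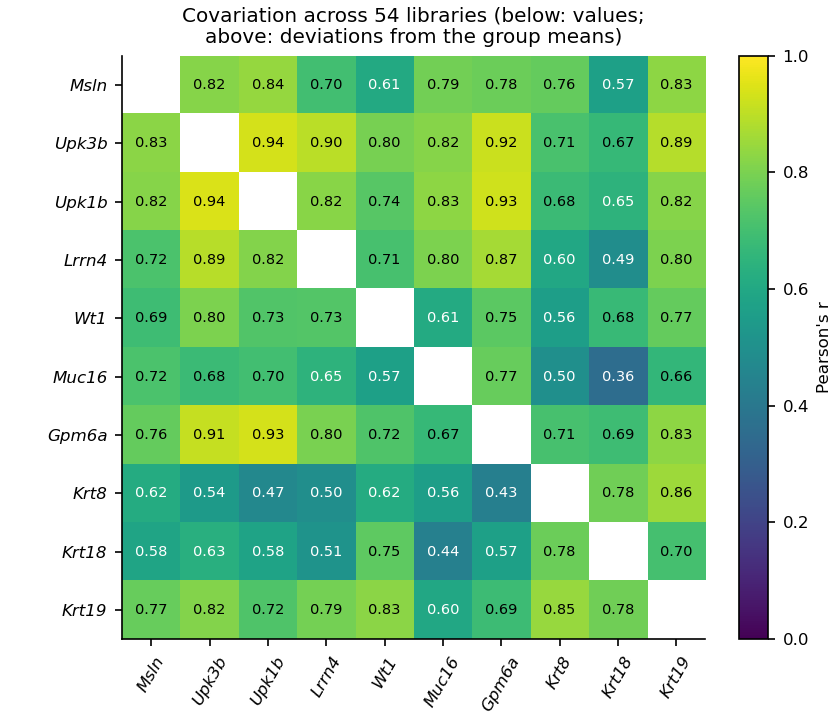
Pearson's r between the genes over 54 libraries, for the log2(CPM + 1) values below the diagonal and for deviations from the group means above it. The block of Upk3b, Upk1b and Gpm6a reaches 0.94, and the lowest value below the diagonal is that of Krt8 with Gpm6a (0.43).

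Genes of other cell types followed the members to differing degrees. On deviations from the group means, the median r of a gene with the 7 members other than keratins was a median of 0.73 over the 15 other mesothelial genes, led by Krt7 (0.87) and Bnc1 (0.85) and lowest in Tbx18 (0.03). Smooth muscle genes had a median of -0.05, adipocyte genes 0.24, macrophage genes 0.24 and uterine epithelial genes -0.12. Progenitor genes were divided, with Dpp4 at 0.72 and Dcn at 0.70 and Pdgfra at 0.02. Skeletal muscle genes had a median of -0.45.

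The 10 genes most like the members over the 54 libraries, by mean Spearman's rho with the 7 members other than keratins among 14293 genes, were Tmem151a (0.83), Aldh1a2 (0.81), Bnc1 (0.80), Rspo1 (0.79), Cxadr (0.78), Twsg1 (0.78), Wfdc1 (0.77), Nkain4 (0.77), Stk26 (0.77) and Ccbe1 (0.77). The median over the genes ranked was -0.0090. Aldh1a2, a retinoic acid synthesising enzyme, Bnc1, Rspo1, a secreted Wnt potentiator, and Nkain4 stand in the list of further mesothelial genes. Tmem151a, a membrane protein, was the closest and fell under DRF by 0.33 ± 0.09 (adjusted p = 0.0041, limma), and Cxadr, an adhesion protein of cell junctions, differed by -0.19 (adjusted p = 0.25, limma). The ranking used levels from both regimens, so genes picked by it tend to share the members' difference, and these values are no separate evidence.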

How the data were processed

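The authors sequenced polyadenylated RNA of each VAT sample. Per the labels' processing notes, HISAT2 2.0.5, featureCounts 1.5.0-p3 and build mm10 were used. The deposited value, named TPM, is treated as a score, because it is no linear TPM: it equals log2(CPM + 1) divided by exon length and scaled per library. Inverting it with GENCODE vM21 exon lengths on GRCm38 gave whole reads (within 0.02) for 99.9998% of 1262030 values, against 4% by chance. These values include 880 genes, Msln among them, whose length was taken from the values so as to give whole reads. For these genes the chance level does not apply, and 1 gene without such a length was left out.

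Log2(CPM + 1) was tested with limma 3.58.1 (intensity trend) in R 4.3.3, the model holding 24-h harmonic terms for DRF and NRF separately, on 25938 genes without a filter, and adjusted by Benjamini-Hochberg (threshold 0.05). The pseudocount of 1 understates the change of low genes. Single times used 14 group means. Rhythm tests were written in Python 3.11.15 after MetaCycle, and phases fitted after CircaCompare. The programs for the mean level, the rhythm difference and the rhythm were tested on simulated data. Those for single times, shares of variance and correlations were not. All 10 members are named, of other lists at most 6 called genes per comparison, largest first, and the 10 genes of highest mean rho; marker genes named beyond this were chosen after their values were seen. Members and lists were chosen with earlier results of these data known. Replicate numbers name different mice, so p-values measure the spread between mice. No library pair of a group was identical (r up to 0.997). Alternatives covered libraries, replicate numbers, scaling, pseudocount, filter, test and model.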

Additional observations from a re-analysis of the deposited data

Results flagged for a closer look

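Of 140 combinations of a gene and a group of 4 mice, 11 had a mouse far from the other 3 by Dixon's ratio (gap over range on the log2(CPM + 1) scale, above its critical value for 4 samples), where chance gives about 1 in 20. Krt8 was far above in DRF ZT0 replicate 4 (ratio 0.907, 249 CPM against 5.47 to 8.09) and in DRF ZT8 replicate 1 (0.919, 148 CPM against 13.9 to 16.9), and Krt18 in DRF ZT8 replicate 1 (0.936, 58.6 CPM against 6.80 to 7.88). These libraries hold uterine epithelial genes. In DRF ZT8 replicate 1, Msln was instead low (0.835, 29.6 CPM against 53.7 to 60.4).

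Among NRF mice, ZT20 replicate 1 was low in Upk3b (0.890, 182 CPM against 238 to 246) and Gpm6a (0.966, 39.2 CPM against 45.8 to 46.1), ZT24 replicate 4 was low in Upk1b (0.876, 18.6 CPM against 38.8 to 43.0) and ZT12 replicate 2 was high in Wt1 (0.835, 37.8 CPM against 23.8 to 25.7). Among DRF mice, ZT16 replicate 4 was high in Upk3b (0.842, 301 CPM against 168 to 184), ZT4 replicate 1 was low in Gpm6a (0.9303, 26.4 CPM against 35.1 to 35.8) and ZT20 replicate 2 was low in Wt1 (0.838, 25.8 CPM against 30.3 to 31.2).

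The rhythms of Muc16 (adjusted p = 0.00032) and Gpm6a (adjusted p = 0.041) differed between DRF and NRF by the interaction test in limma.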

How the results depend on the processing

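With all libraries, 4 of 10 genes fell in mean level, 2 differed in rhythm, 2 were rhythmic under NRF and 1 under DRF, and 5 of 70 single-time tests passed. Without the pair of DRF libraries (ZT0 replicate 4 and ZT8 replicate 1), 4 differed in rhythm, 12 single-time tests passed (chosen after seeing the data), the median share of variance between groups was 44.4% in place of 27.3%, and the mean of Krt8 turned to -0.14. On the deposited values 1 gene differed in rhythm and 1 was rhythmic under NRF. Krt8 alone was rhythmic under NRF without ZT24, with CPM on total reads and by the JTK-type test alone, and Muc16 alone by the limma F-test, 1 gene in each. Leaving out each replicate number gave 0 to 5 genes for the mean level, 1 to 4 for the rhythm difference, 1 to 2 under NRF, 0 to 1 under DRF and 1 to 11 single-time tests, and a mean difference of Krt8 from -0.04 (without number 4) to 0.23 (without number 2). Leaving out each library, an alternative added after seeing the data, gave 3 to 5, 1 to 4, 1 to 2, 1 and 3 to 10. The cause was not tested.

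Deviations of same-numbered samples of other groups had a median r of 0.033 (-0.66 to 0.56, over 0.1 in 137 of 364 pairs). For samples of other numbers the median was -0.010 (-0.63 to 0.65, over 0.1 in 321 of 1092 pairs). The main model did not pair mice by number, and whether same-numbered mice share a small deviation was not tested. With the replicate block, 4 genes fell, 2 differed in rhythm, and 1 passed the limma F-test under NRF and 1 under DRF. Of the other settings for the mean level (scaling, pseudocount of 0.1, filter at a mean CPM of 1, voom, 14 group means), none left the range of 4 to 5 genes, and the deposited values gave 3. Total-read scaling moved the median of all genes by -0.0092. The covariation had a median r of 0.63 over all 56 libraries.

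Depth limits none of the members, whose lowest value is 119 reads. The 4 mice per group, a 4-h interval and a single cycle limit phases, and the spread within groups limits small differences.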
